A study of Mus musculus with 96 samples.

Results

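Alternative 3' splice site events are pairs of splice junctions that leave the same exon end, the donor, and join it to different exon starts, the acceptors or 3' splice sites. In the deposited splicing table, 6709 of 80855 events carry this annotation. The 1670 described here (24.9% of the 6709) are those with a value in at least 20 of the 96 cells. The presence of values is the measure they were chosen by, and the size of the values was not used. Host genes of these events had a median mean expression of 3.95 on the log2(TPM + 1) scale (TPM, a measure of transcript abundance corrected for transcript length), against 1.07 for the 2219 measured genes that have only other events of this annotation. At the threshold, the 86 events with exactly 20 values had a median distance between sites of 21 bases, and the 91 events just outside it, with 19 values, had one of 19 bases.

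The cells were granulocyte-monocyte progenitors (GMP), the bone marrow cells that give rise to neutrophils and monocytes, from C57BL/6 mice with the genotype ThPOK-/-, which lack the transcription factor encoded by Zbtb7b. Bone marrow from the hindlimbs was enriched for cells with CD117 on magnetic beads, stained for flow sorting, and captured as single cells on a Fluidigm C1 system, with SMARTer cDNA and Nextera XT libraries. Neither animals nor ages are named, so all 96 cells count as 1 sample of 1 genotype, no test between groups was possible, and every SD is over cells. Wild-type cells were not analysed here. Per the authors' annotation 31 cells belong to a state named IG2, 26 to Multi-Lin-1 and 12 to proNeu-1, while 27 carry no state name. Cell names also hold a number, 078 or 079, whose meaning is not given, with 48 cells each.

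Of 9 GMP and granule marker genes, 8 were at a TPM of 1 or more in at least 50% of the cells, as were 4 of 6 mast cell and basophil genes, 1 of 5 T and NK genes, 0 of 7 erythroid and megakaryocyte genes and 0 of 5 B cell genes. Between 1019 and 5203 genes were detected per cell. For proNeu-1 the median was 4127.5, for IG2 3940, for Multi-Lin-1 2950 and for cells that carry no state name 2613.

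An acceptor ends in the bases AG at the last positions of the intron. The spliceosome finds it through the branch point, the pyrimidine-rich tract and the AG itself, which are bound by SF1 and the large and small subunits of U2AF, and the second step of splicing then joins the exons there. Where AG dinucleotides lie close together, as in tandem acceptors of the NAGNAG kind, either can be used. In a coding exon a spacing of whole codons adds or removes amino acids without changing the reading frame, unless the stretch holds a stop codon in frame.

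The sequences of several such pairs show how the sites lie to each other. In each line the capitals mark the bases between the sites, which are in the mRNA only when the site nearer the donor is used. Lower-case letters before them are the last bases of the intron, given where an annotated transcript covers them, and those after them are exon in both forms. The first set holds sites 3 bases apart and is shown because this was the most frequent distance. Coordinates are on GRCm38 (mm10), and sequences come from GENCODE M21 transcripts.
Rpl22l1, 3 bases, chr3:28806480-28806526, plus strand: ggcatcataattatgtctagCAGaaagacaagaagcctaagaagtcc
Srsf5, 3 bases, chr12:80949697-80949743, plus strand: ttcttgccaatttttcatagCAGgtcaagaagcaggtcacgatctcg
Ssr4, 3 bases, chrX:73788815-73788861, plus strand: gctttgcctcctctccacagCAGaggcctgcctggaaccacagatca
Pcbp2, 3 bases, chr15:102489732-102489778, plus strand: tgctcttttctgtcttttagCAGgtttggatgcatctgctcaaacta
Srsf10, 3 bases, chr4:135863503-135863549, plus strand: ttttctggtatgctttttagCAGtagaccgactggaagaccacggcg
Myc, 3 bases, chr15:61987487-61987533, plus strand: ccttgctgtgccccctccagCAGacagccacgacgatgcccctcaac
Puf60, 3 bases, chr15:76077676-76077722, minus strand: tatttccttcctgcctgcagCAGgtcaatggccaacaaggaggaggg
Cnbp, 3 bases, chr6:87845297-87845343, minus strand: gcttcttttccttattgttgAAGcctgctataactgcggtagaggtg
H2afy, 3 bases, chr13:56096208-56096234, minus strand: AAGaagcagggagaagtgagcaaggcg

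A second set shows sites farther apart in genes with values in many cells or with a difference between states, in which the stretch between the sites itself ends in AG.
Sirt3, 8 bases, chr7:140878114-140878145, minus strand: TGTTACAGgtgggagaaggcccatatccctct
Rbm39, 18 bases, chr2:156154248-156154289, minus strand: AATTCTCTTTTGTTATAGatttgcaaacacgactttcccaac
Anapc5, 20 bases, chr5:122791712-122791775, minus strand: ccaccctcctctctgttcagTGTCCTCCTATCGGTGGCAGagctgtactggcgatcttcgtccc
Hnrnpc, 24 bases, chr14:52075389-52075436, minus strand: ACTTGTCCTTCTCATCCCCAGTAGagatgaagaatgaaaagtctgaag
Serbp1, 45 bases, chr6:67272799-67272887, plus strand: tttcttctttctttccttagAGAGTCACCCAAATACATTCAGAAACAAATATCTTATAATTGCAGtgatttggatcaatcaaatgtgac
Hnrnpk, 60 bases, chr13:58392393-58392476, minus strand: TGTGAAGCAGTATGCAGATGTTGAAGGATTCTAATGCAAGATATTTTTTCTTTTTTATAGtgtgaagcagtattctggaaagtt

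The 1670 events name 1108 distinct pairs of sites in 776 genes, because 562 pairs are listed from both sites. Each pair was counted once from here on unless events are named. All 1670 events share the donor, there are 1034 donors, and 69 of them carry more than 1 pair, which makes 143 pairs that are not independent of a neighbour. Most genes (541) had 1 pair, and the highest number was 5, in Cuedc2, Exosc8, Gnl3, Xrn2 and Zfyve19. Values were present in 20 to 96 cells per pair, with a median of 33, and 2 pairs had values in all 96 cells. Most pairs lay in coding sequence (983, 88.7%), 90 in 5' UTRs and 17 in 3' UTRs. A pair was called coding if any annotated transcript using a site had it within its coding range, even where others placed it in a UTR. In 917 pairs the stretch between the sites could be read from annotated transcripts, and in 916 of these it ended in AG.

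Sites were most often 3 bases apart. The median distance was 22 bases, with quartiles of 5 and 66. A spacing of 3 bases was found in 134 pairs in 131 genes, of 4 bases in 98 pairs, of 5 bases in 54 and of 6 bases in 34. Over pairs the share at 3 bases was 12.1% (95% Clopper-Pearson interval 10.2 to 14.2, which like all intervals here covers only the counting of events or pairs). Counted over events, as listed, 234 of 1670 were 3 bases apart (14%, 12.4 to 15.8). Intervals over events are too narrow, because 562 pairs enter them from both sites. Among 1289 alternative 5' splice site events of the same minimum that share the acceptor, 21 (1.63%) were 3 bases apart. At 4 bases the shares lay nearer to each other, 9.16% for the 3' and 7.76% for the 5' events. The difference between these 2 kinds of event was not tested.

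Distances that are whole codons, multiples of 3 bases, made up 44.3% of the events (41.9 to 46.7) and 42.9% of the pairs (39.9 to 45.8). Without the events 3 bases apart the share was 35.2% (32.7 to 37.7), and it was 35.3% in the alternative 5' events treated in the same way. Outside the 3-base distance the 2 kinds of event thus had nearly the same share of whole codons.

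**Figure D1:**
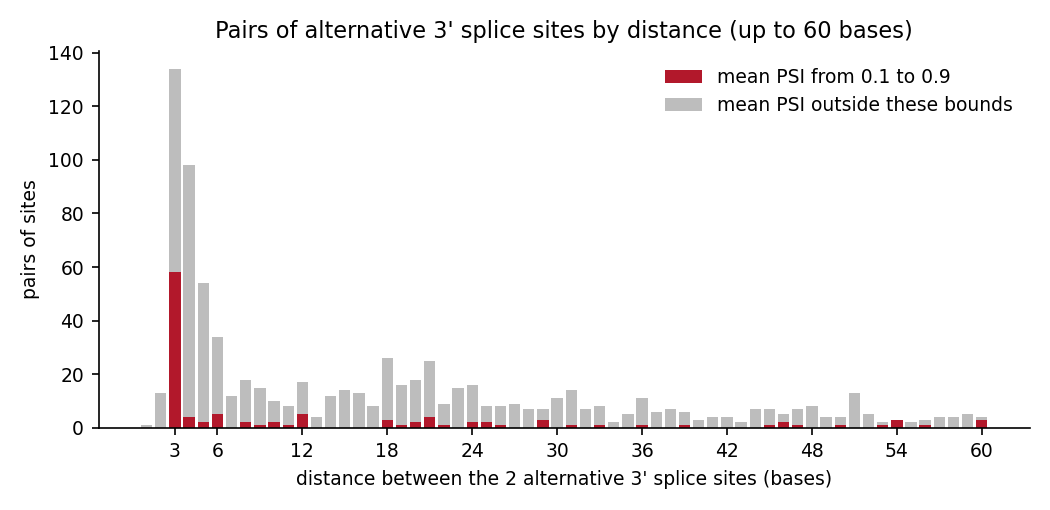
Number of pairs of alternative 3' splice sites (vertical axis) at each distance between the sites up to 60 bases (horizontal axis), with pairs of mean PSI from 0.1 to 0.9 in red and the others in grey. The column at 3 bases is the highest, with 134 pairs of which 58 are red, while that at 4 bases has 98 pairs of which 4 are red.

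The splicing values are percent spliced in (PSI), the fraction of the reads over the junctions of an event that take the junction examined, from 0 to 1. They are given here as use of the nearer site, the acceptor closest to the donor. Where the table examined the farther site, its PSI was subtracted from 1, and the result can then include further acceptors of the same donor. In Hnrnpc the same nearer site had a mean of 0.460 in the 21-base pair, where it was examined itself. It had 0.863 in the 24-base pair, where the farther site was examined. The nearer site was the main one in most pairs: its mean PSI over cells was above 0.5 in 769 of 1108 pairs (69.4%), and the median over pairs was 0.953. Most events were close to all or none. A mean PSI from 0.1 to 0.9, called intermediate here, was found in 273 events (16.3%, 14.6 to 18.2), against 11.3% of the 19295 events of all annotations with the same minimum of cells, 13.5% of cassette exon and 16.1% of alternative 5' events. The share was higher in events annotated as trans-splicing (21.7%), alternative promoters (22.2%) and alternative C-termini (31.3%). Counted as pairs there were 155 intermediate ones (14%, 12 to 16.2) in 138 genes. The 273 events stand for these 155 pairs and the other 1397 events for 953 pairs. Intermediate pairs were thus listed from both sites more often, and a count over pairs was not made for the other annotations. Of the 86 events with exactly 20 values 25.6% were intermediate, and of the 91 with 19 values 25.3%. The share was not recomputed at other minimum numbers of cells.

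Intermediate use was concentrated at the 3-base distance, where 58 of 134 pairs had it (43.3%, 34.8 to 52.1). At 4 to 12 bases the share was 8.27% of 266 pairs (5.26 to 12.3), at 13 to 50 bases 8.07% of 347 (5.43 to 11.5), at 51 to 200 bases 13.3% of 226 and above 200 bases 14% of 121. None of the 14 pairs 1 or 2 bases apart was intermediate. The interval at 3 bases did not overlap that of any other class. Multiples of 3 bases made up 65.2% of the intermediate pairs (57.1 to 72.6) and 39.2% of the others (36.1 to 42.4). With the 3-base pairs set aside the shares were 44.3% (34.2 to 54.8) and 34% (30.8 to 37.2), with overlapping intervals. In pairs of coding sequence with both sites annotated and more or fewer than 3 bases apart, 36 of 67 intermediate pairs (53.7%, 41.1 to 66) and 96 of 252 others (38.1%, 32.1 to 44.4) were at multiples of 3, again with overlapping intervals. Overlap of intervals, here and below, does not show that shares or medians are alike, and these differences were not tested.

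Use of the nearer site also went with distance. Its median over pairs was 0.988 at 1 to 2 bases, 0.891 at 3 bases (interval of the median 0.816 to 0.914), 0.986 at 4 to 12 bases, 0.234 at 13 to 50 bases (0.0623 to 0.882), 0.955 at 51 to 200 bases and 0.952 above that. The low median at 13 to 50 bases came with a mixture: 166 of these 347 pairs had a mean above 0.5, and the quartiles were 0.000962 and 0.982. In that class 109 pairs had only the farther site in the annotation.

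Use also went with which of the sites is annotated. GENCODE M21 holds both sites of 438 pairs, only the nearer of 492, only the farther of 167 and neither of 11. Where only the nearer site was annotated its median use was 0.991 and 15 pairs (3.05%) were intermediate, and where only the farther was annotated the median was 0 and 11 pairs (6.59%) were intermediate. With both annotated, 127 of 438 pairs were intermediate (29%, 24.8 to 33.5), among them 49 of 73 at 3 bases (67.1%, 55.1 to 77.7) and 14 of 59 at 4 to 12 bases (23.7%, 13.6 to 36.6). Within annotated pairs as well, the intervals of these 2 classes did not overlap. Of the 98 pairs 4 bases apart, 81 had only the nearer site annotated.

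**Figure D2:**
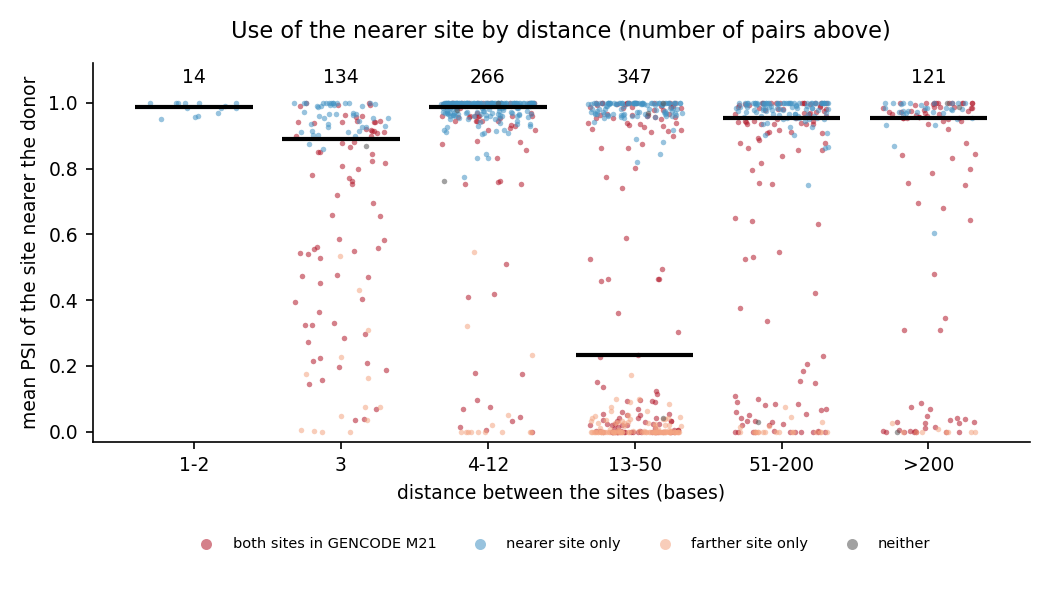
Mean PSI of the nearer site (vertical axis, 0 to 1) for each pair, by class of distance (horizontal axis, number of pairs above), coloured by which sites GENCODE M21 holds; black bars are medians over pairs. Points between 0.1 and 0.9 are most frequent at 3 bases, and the class of 13 to 50 bases is split between values near 0, mostly with the farther or both sites annotated, and values near 1.

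At 3 bases the triplet that ends the farther site went with how much the nearer site was used. That triplet, the capitals in the first set of sequences above, was CAG in 71 of the 127 pairs in which it could be read, AAG in 39, TAG in 10 and GAG in 7. Median use of the nearer site was 0.658 with CAG (interval of the median 0.478 to 0.822), 0.952 with AAG (0.911 to 0.986), 0.920 with TAG (0.882 to 0.946) and 0.990 with GAG. Intermediate pairs were 40 of 71 with CAG (56.3%, 44 to 68.1), 10 of 39 with AAG (25.6%, 13 to 42.1), 3 of 10 with TAG and 1 of 7 with GAG. Among pairs with both sites annotated the medians were 0.572 for 50 pairs with CAG (0.469 to 0.780) and 0.90 for 15 with AAG (0.695 to 0.941), whose intervals overlap.

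The triplet that ends the nearer site can be read only where a transcript covers the intron. In 20 pairs both sites end in CAG, and the farther site led: median use of the nearer was 0.318 (0.188 to 0.431), and 14 of the 20 were intermediate. Of these 20 pairs, 13 have both sites annotated, 6 only the farther and 1 only the nearer, and the mean was above 0.5 in 6. Among all 71 pairs with CAG at the farther site, 50 have both annotated, 8 only the farther and 13 only the nearer. The pairs that could be read thus differ in annotation from the rest, and the part of this in their median was not tested. Where AAG follows CAG, in 10 pairs, the median was 0.934 (0.879 to 0.998), and where CAG follows TAG, in 6 pairs, it was 0.679 (0.331 to 0.918). Rpl22l1, Srsf5, Pcbp2 and Srsf10 are of the last kind, and Ssr4, Myc and Puf60 of the first, as printed above, though in these 3 the nearer site led.

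Bases before the nearer site could be read in 374 pairs of any distance, and in 369 they were AG. The 5 exceptions were Golga7, Cnbp, Sec13 and Snrpe, with TG, and Brcc3, with AC, named because they are so few. In 4 of them the site without AG or its partner was used almost alone: the mean PSI of the nearer site was 0.000483 in Golga7, 0.00282 in Sec13, 0 in Snrpe and 1 in Brcc3. Cnbp differed, with both its sites annotated.

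Cnbp, which encodes a zinc finger protein that binds single-stranded nucleic acids, had PSI values of the nearer site from 0 to 1 in 85 cells, with a median of 0.232 and a mean of 0.325 ± 0.314 (SD). In 68 of the 85 cells both sites were in use, in 16 only the farther and in 1 only the nearer. The site preceded by TTG was thus found in use beside the AAG site in most cells with a value.

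The other 3-base pairs with intermediate use and values in the most cells ranged from mainly farther to mainly nearer. Rpl22l1, a paralog of the ribosomal protein gene Rpl22, had a median of 0.274 over 88 cells and a mean of 0.331 ± 0.338. Fxyd5, a regulator of the sodium pump, had a median of 0 over 71 cells and a mean of 0.198 ± 0.344, and 40 of its cells used the farther site alone. Srsf5, an SR protein that binds exonic splicing enhancers, had a median of 0 over 59 cells and a mean of 0.210 ± 0.354. In these genes the farther site was the main one.

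Use was more even in Rbm3, a cold-induced RNA-binding protein, with a mean of 0.473 ± 0.413 (n = 80), in Uchl5, a deubiquitinase of the proteasome, with 0.527 ± 0.420 (n = 61), and in Pcbp2, a poly(C)-binding protein, with 0.560 ± 0.426 (n = 60). The nearer site led in Ly6e, a GPI-anchored surface protein of the Ly6 family, with a median of 0.706 and a mean of 0.657 ± 0.284 (n = 87), in Ssr4, a subunit of the translocon-associated complex, with a median of 0.939 and a mean of 0.720 ± 0.348 (n = 70), and in Sarnp, an mRNA export protein, with a mean of 0.822 ± 0.317 (n = 66). In each of these 9 genes and in Cnbp single cells covered the whole range from 0 to 1. Both sites are annotated, and the pairs are coding by the rule given above.

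**Figure D3:**
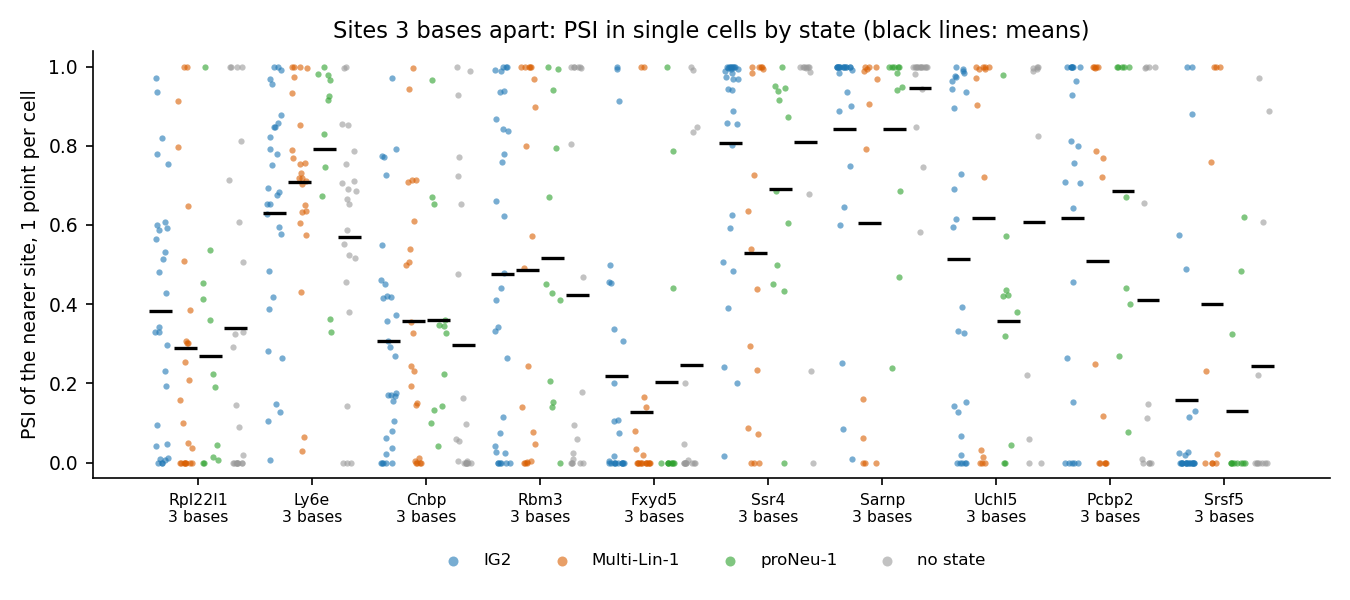
PSI of the nearer site (vertical axis, 0 to 1) in single cells, 1 point per cell with a value, for the 10 intermediate 3-base pairs with values in the most cells, coloured by the authors' state; black lines are means. In every gene the points of the states overlap, and Ly6e has many cells between 0.5 and 1 while Fxyd5 and Srsf5 have most cells at 0.

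Farther apart, the pairs with values in the most cells held several RNA-binding proteins. Hnrnpk, which binds cytosine-rich RNA, has sites 60 bases apart with a mean PSI of the nearer site of 0.229 ± 0.151 over 83 cells, from 0 to 0.556, and no cell used the nearer site alone. Hnrnpc, which binds uridine tracts near acceptors, joins 1 donor to 3 sites that all show intermediate use, the second 21 and the third 24 bases after the first, with mean PSI of 0.460, 0.391 and 0.137 over 76 cells. The second and the third lie 3 bases apart, and the last capitals of its printed sequence, CAGTAG, hold both acceptor ends. Serbp1, an mRNA-binding protein, has a 45-base pair at 0.228 ± 0.316 (n = 79). All of these distances are multiples of 3 bases, as were 65.2% of all intermediate pairs. Those of Gas5, Anapc5 and Naa10, given next, are not. A multiple of 3 does not by itself show that amino acids are only added or removed. The printed Hnrnpk stretch holds TAA, a stop codon where it falls in frame, and the frame was not examined.

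Gas5, a noncoding host of small nucleolar RNAs, had sites 164 bases apart and values in all 96 cells, with a mean of 0.530 ± 0.255 and both sites in use in 90 cells. Anapc5, a subunit of the anaphase-promoting complex, had 20 bases, not a whole number of codons, and a median of 0.991 with a mean of 0.898 ± 0.273 (n = 58). Naa10, the catalytic subunit of an N-terminal acetyltransferase, had 91 bases and a mean of 0.633 ± 0.452 (n = 54). The spread over cells was thus smallest in Hnrnpk among the pairs described here with values in over 50 cells.

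The longest spacings with intermediate use were 5937 bases in Erdr1, on chromosome Y, 2285 in Mrpl15, of the mitochondrial ribosome, 1821 in Hnrnpa2b1, 1187 in Cbx1, the heterochromatin protein HP1 beta, and 962 in Ivns1abp. Hnrnpa2b1 lies in a 3' UTR and had a mean of 0.842 ± 0.216 (n = 82) with no cell on the farther site alone, and Mrpl15 had 0.681 ± 0.438 (n = 37), Cbx1 0.604 ± 0.466 (n = 27) and Ivns1abp 0.309 ± 0.440 (n = 39). Erdr1 had 0.869 ± 0.194 (n = 68), and its reads may be shared with copies of the gene, so its values are uncertain.

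At intermediate pairs a single cell more often showed 1 site alone than both. Of 5570 values at the 155 intermediate pairs, 31.5% were exactly 0, 31.7% exactly 1 and 36.8% between. The share between 0 and 1 had a median of 21.2% over pairs and ran from 0% to 95.2%, the last in Hnrnpk; 29 pairs were over 50% and 11 had none. It was higher where the host gene was expressed more: across the 150 pairs whose gene has an expression value, Spearman's rho between the share and the mean log2(TPM + 1) was 0.563, a description over pairs that share the same cells. Junction reads per cell are not given, so the part of depth in the values of exactly 0 and 1 was not tested.

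Mean PSI was alike in cells numbered 078 and 079. Over 961 pairs with at least 10 cells in each, Pearson's r of the means was 0.991, and over the 125 intermediate ones it was 0.886, with a median absolute difference of 0.083. Cnbp moved more than that, from 0.233 to 0.429, as did Eif4a2, a translation initiation helicase with CAG between its sites, from 0.413 to 0.168.

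Host genes by function were described from lists of names. Of 48 genes of acceptor recognition, the second step and their regulators, 17 had a pair, 30 pairs in all, and 9 of the 30 were intermediate, beside 14% of all pairs. They were the 60-base pair of Hnrnpk, the 1821-base pair of Hnrnpa2b1, the 3-base pair of Srsf5, the 21-base and 24-base pairs of Hnrnpc, and 1 pair each of Rbm39, Srsf10, Puf60 and Ptbp1. Hnrnpk, Hnrnpa2b1, Srsf5, Hnrnpc and Rbm39 also had pairs that were not intermediate. Rbm39, a U2AF-related factor, had 18 bases and a mean of 0.465 ± 0.470 (n = 37). Srsf10, an SR protein, had 3 bases and 0.798 ± 0.384 (n = 42). Puf60, a partner of U2AF, had 3 bases and 0.876 ± 0.301 (n = 38). Ptbp1, the polypyrimidine tract-binding protein, had 435 bases and 0.80 ± 0.41 (n = 20), with no cell between 0 and 1. Of the 48 genes, 34 were at a TPM of 1 or more in at least 50% of the cells, with a median of 67.7%, U2af1 being detected in 63.5% and U2af2 in 39.6%.

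Of 35 myeloid and progenitor genes, 7 had 11 pairs, of which 4 were intermediate. Besides Ly6e these were Cd34, the progenitor surface marker, with 156 bases and a mean of 0.336 ± 0.408 (n = 49), Myc, with 3 bases and 0.753 ± 0.364 (n = 42), and Mef2c, a transcription factor, with 3 bases in the 5' UTR and 0.364 ± 0.458 (n = 24). All 4 distances are multiples of 3 bases, as were 65.2% of all intermediate pairs. The pair of Mef2c lies outside coding sequence. The others were placed only by the rule given above, by which 1 transcript is enough to call a pair coding. In the printed Myc sequence an ATG follows shortly after the sites, and which start codon is used was not examined. Of 22 chromatin genes, 6 had 8 pairs and 3 were intermediate, all at 3 bases, as were 37.4% of all intermediate pairs. They were Dnmt1, the maintenance DNA methyltransferase, at 0.658 ± 0.443 (n = 26), and Ncor1, a corepressor, at 0.145 ± 0.310 (n = 25). The last was H2afy, the histone variant macroH2A1, at 0.402 ± 0.396 (n = 49). Of all pairs 14% were intermediate, and the counts in both lists are small and were not tested.

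The other lists are set beside the 14% of all pairs that were intermediate, without a test. Among 168 genes with ribosomal protein and translation factor symbols (Rps, Rpl, Eif and Eef), 26 had 35 pairs with 2 intermediate, Rpl22l1 and Eif4a2 at 0.286 ± 0.436 (n = 52). Among 103 genes of mitochondrial energy, 23 had 31 pairs with 0 intermediate. Among 144 genes with proteasome and ubiquitin symbols, 20 had 33 pairs with 4 intermediate: Ube2f, Ube2w, Usp16 and Psmc3ip, of which the last, despite its symbol, is known for meiotic recombination. Among 23 cell cycle genes, 5 had 11 pairs with 1 intermediate, Top2a at 3 bases and 0.764 ± 0.404 (n = 32). The lists differ in how highly their genes are expressed, and the part of this in the counts was not tested.

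Between states, large differences in PSI were about as frequent among alternative 3' events as among all events. The rule was a difference in mean PSI of at least 0.2 with at least 5 cells with a value in each state, a size and not a test. Between IG2 and Multi-Lin-1, 69 of the 1306 events that could be compared passed it (5.28%), where of all 16464 events of any annotation 4.71% did. Between proNeu-1 and IG2, 44 of 1233 passed (3.57%), against 3.76% of all events, and between proNeu-1 and Multi-Lin-1, 50 of 1037 (4.82%), against 4.52%. Cells of 1 state that differ only in their label number passed it about as often: 69 of 1266 events within IG2 (5.45%, against 4.14% of all events) and 20 of 495 within Multi-Lin-1 (4.04%, against 3.14%). These counts are near the background and near those between label numbers, so they are not a result about alternative 3' events.

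As pairs, 40 of 867 passed between IG2 and Multi-Lin-1, in 38 genes, with the nearer site higher in IG2 in 26 and lower in 14. Between proNeu-1 and IG2, 27 of 819 passed, with the nearer site higher in proNeu-1 in 10 and lower in 17, and between proNeu-1 and Multi-Lin-1, 30 of 690, higher in 18 and lower in 12. The median difference over all compared pairs was 0 in each comparison. The comparisons share cells and are not independent of each other. Among intermediate pairs, which have room to differ, 30 of 123 passed between IG2 and Multi-Lin-1 (24.4%), 19 of 103 between proNeu-1 and IG2 (18.4%) and 22 of 87 between proNeu-1 and Multi-Lin-1 (25.3%). Between label numbers 23 of 112 passed within IG2 (20.5%) and 8 of 28 within Multi-Lin-1 (28.6%), so the shares between states and between label numbers cover the same range.

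**Figure D4:**
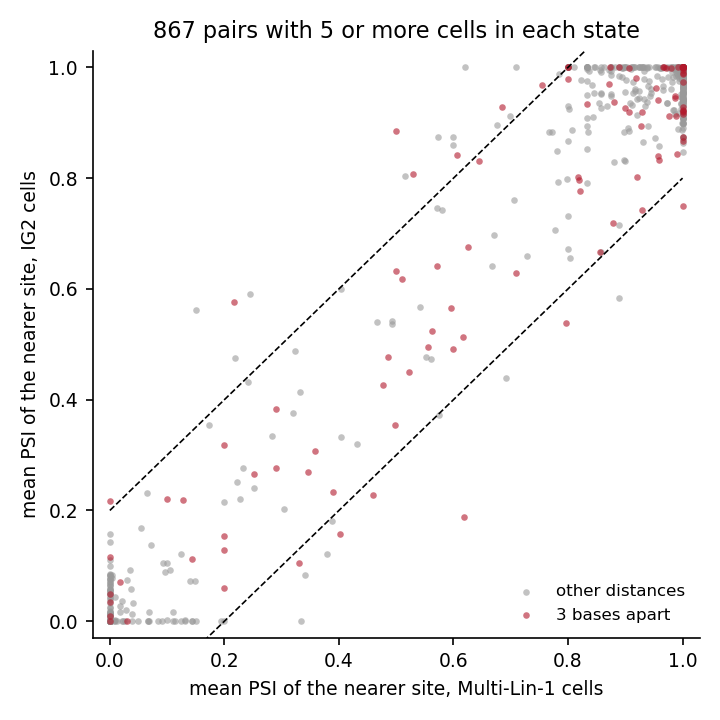
Mean PSI of the nearer site in Multi-Lin-1 cells (horizontal axis) and in IG2 cells (vertical axis) for 867 pairs with at least 5 cells in each, with 3-base pairs in red; dashed lines mark a difference of 0.2. Most pairs lie at the corners near 0 or 1, and 40 lie on or outside the dashed lines.

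The pairs with the largest differences are given as descriptions, since they were chosen for their size. For IG2 and Multi-Lin-1 they were also required to have the same sign within both label numbers, with at least 3 cells of each state in each. H2afy had PSI values of the nearer site from 0 to 0.694 in 19 IG2 cells (median 0.0435, mean 0.188 ± 0.242) and from 0 to 1 in 10 Multi-Lin-1 cells (median 0.785, mean 0.618 ± 0.405). In 8 proNeu-1 cells the mean was 0.446 ± 0.398. IG2 cells were thus mostly on the farther site and Multi-Lin-1 cells were spread over the whole range, which the IG2 values lie within. Within label number 078 the means were 0.274 (n = 10) and 0.588 (n = 5), and within 079 they were 0.092 (n = 9) and 0.649 (n = 5). The host gene had a mean log2(TPM + 1) of 9.55 in IG2 and 9.28 in Multi-Lin-1.

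In Ssr4 the nearer site was higher in IG2, from 0.0175 to 1 in 30 cells (median 0.969, mean 0.807 ± 0.285), than in Multi-Lin-1, from 0 to 1 in 17 cells (median 0.538, mean 0.530 ± 0.415). The ranges overlapped almost wholly. Expression of Ssr4 differed as well, with a mean log2(TPM + 1) of 9.54 in IG2 and 6.82 in Multi-Lin-1, and its part in the PSI difference was not tested. Sirt3, the main mitochondrial deacetylase, has sites 8 bases apart, not a whole number of codons, and the effect of the choice on the protein was not examined. Its median was 0.989 in 5 proNeu-1 cells (mean 0.598 ± 0.546), 0.894 in 13 IG2 cells (0.562 ± 0.486) and 0 in 7 Multi-Lin-1 cells (0.150 ± 0.375), with cells at both 0 and 1 in each state.

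Some of the pairs with large differences had 1 site alone in every cell of a state. That was not particular to them: of all values of the events 51.1% were exactly 0 and 37.8% exactly 1. Among other pairs, Manf was at 1 in all 29 IG2 cells and Ilf2 at 0 in all 21. Gnl3, which encodes nucleostemin, with 62 bases, was at 1 in all 15 IG2 cells and from 0.0769 to 1 in 7 Multi-Lin-1 cells, where 4 cells were at 1. Abhd14a, with 54 bases, was at 0 in all 13 IG2 cells, while 2 of 6 Multi-Lin-1 cells were at 1, as were 2 of 5 proNeu-1 cells. Ddx56, a nucleolar helicase with 54 bases, was at 1 in all 12 IG2 cells and had a mean of 0.586 ± 0.424 in 5 proNeu-1 cells. In each of these the other state still held cells with the same value as IG2.

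Spop, the substrate adaptor of a cullin 3 ubiquitin ligase, with 75 bases, had means of 0.584 ± 0.505 in 10 IG2 and 0.889 ± 0.333 in 9 Multi-Lin-1 cells. Sp110, a nuclear body protein, with 12 bases, had 0.121 ± 0.283 (n = 14) and 0.380 ± 0.477 (n = 7), and Tbc1d10c, with 4 bases, had 0.804 ± 0.386 (n = 11) and 0.516 ± 0.532 (n = 6). The differences between IG2 and Multi-Lin-1 in these 3 genes were smaller than the SD over cells in at least 1 of the states. The same held for Ssr4, Sirt3, Gnl3 and Abhd14a, but not for H2afy.

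**Figure D5:**
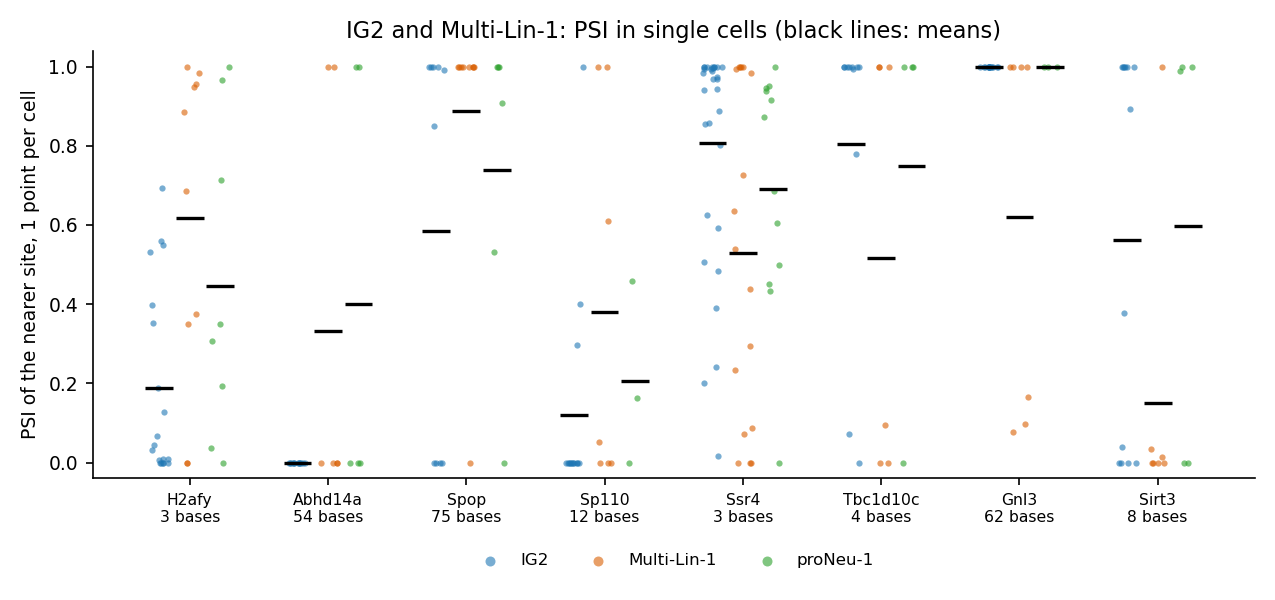
PSI of the nearer site (vertical axis, 0 to 1) in single cells, coloured by state, for the 8 pairs with the largest differences between IG2 and Multi-Lin-1 among those with the same sign, and at least 3 cells a state, within both label numbers; black lines are means. H2afy has most IG2 cells below 0.2 and Multi-Lin-1 cells up to 1, and every gene has overlapping states.

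Against IG2, proNeu-1 cells differed most in Immt, which encodes the MICOS subunit mitofilin. Its 33-base pair had a mean of 0.110 ± 0.221 in 5 proNeu-1 cells (median 0) and 0.590 ± 0.475 in 11 IG2 cells (median 0.909). Rfc1, the large subunit of the clamp loader, with 3 bases, had 0.155 ± 0.286 in 5 and 0.633 ± 0.485 in 11 cells, and a second Pcbp2 pair, 12 bases apart, had 0.648 ± 0.415 in 9 and 0.320 ± 0.388 in 18 cells. In Rfc1 the label number moved with the result, since 9 of the 11 IG2 cells were numbered 078 with a mean of 0.774, and the 2 numbered 079 were at 0. These differences rest on 5 to 9 proNeu-1 cells, and of the 376 events with at least 10 cells in each of these states, 0 passed the rule.

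A summary of the 3-base sites per cell was also taken. In each cell with at least 10 of the intermediate 3-base pairs, the mean difference of its PSI from the pair's mean over cells was taken. For 12 proNeu-1 cells it was 0.001 ± 0.038, for 31 IG2 cells -0.012 ± 0.075, for 24 Multi-Lin-1 cells 0.004 ± 0.071, and for 23 cells that carry no state name 0.011 ± 0.087. Single cells ran from -0.197 to 0.187. The summary averages over pairs that differ in opposite directions, such as H2afy and Ssr4, and does not show whether a shift is shared.

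Depth goes with the states. The number of pairs with a value per cell had a median of 634.5 for proNeu-1, 615 for IG2 and 413 for Multi-Lin-1, and ran from 5 to 817 over all cells. The rule was applied again in the 55 cells with at least 3000 genes detected, of which 10 are Multi-Lin-1. There 24 of 689 events passed it between IG2 and Multi-Lin-1 (3.48%), in place of 69 of 1306. The share of events of all annotations that passed in these cells was not taken.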

How the data were processed

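The authors deposited splicing as PSI fractions from 0 to 1 for each event and cell, and expression values as log2 values that the deposited table names RSEM TPM. Raising 2 to each log2 value and subtracting 1 gave a sum of 1000000 per cell, so they were read as log2(TPM + 1). State names were taken from the authors' deposited annotation, and how the states were made is not given in the sources used here. The submitters' processing notes list mm9, mm10, Bowtie2, RSEM and STAR without roles. The deposited tables also hold 1142 columns and 511 state entries that no label maps to a sample, which were not used.

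Coordinates were read on mm10, where junctions matched GENCODE M21 (GRCm38). Of rows naming the same pair of sites, the one with values in the most cells was kept. Where a pair was listed from both sites, both PSI summed to 1 (within 1e-06) in 91.9% of 22854 values, so 1 minus PSI can include other junctions. PSI comes without read counts, so depth is unknown, and no doublets were called. Intervals are 95% Clopper-Pearson for shares and binomial order-statistic intervals for medians, and cover counting of events or pairs only. No test was run, because the cells are 1 sample.

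Named pairs are the 10 intermediate 3-base pairs and up to 10 farther apart with values in the most cells, up to 8 per state comparison with the largest difference (for IG2 with Multi-Lin-1 where cells numbered 078 and 079 had to give 1 sign, with at least 3 cells a state in each), the 5 longest intermediate ones and intermediate members of the gene lists. Not every one of them is described. Members and lists were chosen with earlier results of these data known. Versions were SciPy 1.17.1, pandas 2.3.3, matplotlib 3.10.9, NumPy 2.4.6 and Python 3.11.15, and the calculations were tested on simulated data.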

Additional observations from a re-analysis of the deposited data

How the results depend on the processing

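No paired analysis was possible because all cells are of 1 group. Of 62 values recomputed under another setting, 27 stayed within the spread or within 1.5 times the count, and 35 did not. Some settings change a count by their definition, such as another minimum of cells, other bounds or another size of difference. The 27 and 35 are thus not a measure of stability. The direction of differences was not compared between settings. The number of events was 3063 with at least 10 cells, 649 with at least 40 and 1108 with 1 event per pair, where 12.1% were 3 bases apart. With 40 cells 46.8% of distances were multiples of 3. Intermediate events were 29.8% with bounds of 0.05 and 0.95, 9.94% with 0.2 and 0.8, 4.31% by median PSI, 18.3% in cells numbered 078 and 18.4% in those numbered 079. Median use of the nearer site was 1.0 by median PSI over all events and also over 3-base events, and 0.938 over all events in cells numbered 079.

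Events past the rule are given in the order IG2 with Multi-Lin-1, proNeu-1 with IG2 and proNeu-1 with Multi-Lin-1. With 1 event per pair they were 40 of 867, 27 of 819 and 30 of 690. At a difference of 0.1 they were 231 of 1306, 173 of 1233 and 204 of 1037, and at 0.3 18, 13 and 14. Between label numbers they were 234 of 1266 in IG2 and 88 of 495 in Multi-Lin-1 at 0.1, and 18 and 3 at 0.3. With at least 10 cells per state 17 of 584, 0 of 376 and 7 of 322 passed. With 3 cells the comparisons of proNeu-1 gave 81 of 1553 and 111 of 1459. By median PSI proNeu-1 with IG2 gave 29 of 1233. In cells with 3000 genes IG2 with Multi-Lin-1 gave 24 of 689 and proNeu-1 with Multi-Lin-1 gave 26 of 623. With 3 cells per state, IG2 with Multi-Lin-1 gave 117 of 1193 within label number 079 and 88 of 1102 within 078. The share of all events that passed was not taken under these settings. Fewer cells or events enter several of these settings, and the cause of the changes was otherwise not tested.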

Other observations

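In 6 pairs the sites lay more than 10000 bases apart, and in all of them the farther site was outside the annotation and the mean PSI of the nearer site was above 0.9. The longest was Ftsj3, a factor of ribosome biogenesis, at 527055 bases, with a mean PSI of 0.983 ± 0.083 over 23 cells. Ppp2r3c, a regulatory subunit of protein phosphatase 2A, followed at 64458 bases with 0.95 ± 0.142 over 30 cells, and Fam92a at 53226 bases with 1 in all 25 cells with a value.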
